A study of Rattus norvegicus with 6 samples.

Results

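Periostin and 7 other genes that mark activated fibroblasts were followed in rat hearts: Postn, Cthrc1, Fap, Ddah1, Aebp1, Cdh11, Prss23 and Piezo2. Each was found by its symbol in the count table, in 1 row, so all 8 of 8 were present among 32883 rows with a gene name. The hearts came from male Sprague–Dawley rats, labelled wild type, 8 weeks old and 250 to 300 g. Injections under the skin ran for 7 days, with saline in 3 rats and with ISO at 1.5 mg/kg/day in the other 3. ISO was taken to mean isoproterenol, which activates beta-adrenergic receptors, and the series concerns myocardial hypertrophy and fibrosis. Each of the 6 libraries was made from bulk heart RNA.

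Fibroblasts of the healthy heart maintain a collagen network and are largely quiescent. Injury or sustained adrenergic drive activates them, and activated fibroblasts secrete periostin, a matricellular protein that binds collagen and integrins and whose gene is the usual marker of this state in the heart. Cthrc1 encodes a secreted collagen triple helix protein, Fap a cell-surface protease, Aebp1 the collagen-binding protein ACLP, Cdh11 an adhesion molecule of mesenchymal cells, Prss23 a secreted serine protease, Ddah1 an enzyme that degrades the nitric oxide synthase inhibitor asymmetric dimethylarginine, and Piezo2 a mechanically gated ion channel.

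The promoters of 5 of the 8 genes were in the RefSeq table for build GRCr8, and 3 are shown because they belong to Postn, which had the largest change, to Fap, a surface protein of the same state, and to Ddah1, the gene whose mean was lower in ISO. Each run gives the 250 bases before the listed transcript start, 5′ to 3′ on the gene's strand. Capitals mark E-boxes (CANNTG) and, in Postn, a TATA box (TATAAA). Postn lies on the plus strand (chr2:140677811-140678060), Fap on the minus strand (chr3:67616092-67616341) and Ddah1 on the plus strand (chr2:237327562-237327811). The RefSeq models of Postn and Fap begin further upstream than these starts, so other transcripts may begin inside or before the windows.
Postn: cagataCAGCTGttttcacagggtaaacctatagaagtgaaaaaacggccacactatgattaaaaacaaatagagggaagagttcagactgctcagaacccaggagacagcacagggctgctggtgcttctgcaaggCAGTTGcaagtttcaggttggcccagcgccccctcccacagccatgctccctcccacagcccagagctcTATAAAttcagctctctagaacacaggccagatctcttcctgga
Fap: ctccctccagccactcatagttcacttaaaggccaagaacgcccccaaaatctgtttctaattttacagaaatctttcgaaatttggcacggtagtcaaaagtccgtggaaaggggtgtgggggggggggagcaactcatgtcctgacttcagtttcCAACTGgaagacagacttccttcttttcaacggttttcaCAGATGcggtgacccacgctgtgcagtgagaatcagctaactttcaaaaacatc
Ddah1: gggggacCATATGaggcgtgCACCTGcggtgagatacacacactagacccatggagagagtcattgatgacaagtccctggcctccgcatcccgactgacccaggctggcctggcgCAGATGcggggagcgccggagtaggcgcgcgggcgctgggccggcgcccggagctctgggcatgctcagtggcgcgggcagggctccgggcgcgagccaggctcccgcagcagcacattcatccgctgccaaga

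The TATA box of Postn began 44 bases before the listed start, and its E-boxes began 244 and 113 bases before it. An E-box, the letters read by basic helix-loop-helix factors, was present in 4 of the 5 windows, all but that of Piezo2, and in 65.5% of the 33469 promoter windows in the table. TATAAA was present in 1 of the 5 and in 12.9% of all windows. The AP-1 motif TGANTCA (6.34% of all windows), the TEAD motif GGAATG (12.1%), the SMAD motif GTCTAGAC (0.173%) and the CArG box of serum response factor (1.50%) were in none of the 5. Both strands were searched, and matches of different motifs may overlap. The GC content of the window was 50.8% for Postn and 47.2% for Fap, and 68.8% for Ddah1. These letters describe the windows only and say nothing about binding in these hearts.

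The libraries held between 14712798 and 17070878 counts in named genes. The tissue label was borne out by cardiomyocyte markers, whose 7 measured members summed to 32518 to 41568 CPM (counts scaled to library size, with TMM factors) in saline and 23722 to 35018 CPM in ISO. Of 13766 genes tested with edgeR, 203 were called higher in ISO and 206 lower at an adjusted p under 0.05, against 280 higher and 123 lower when counts were not scaled by TMM. ISO replicate 1 held RNA of atrial muscle genes, whose 5 markers summed to 189 CPM there and to at most 4.18 CPM in the other libraries. ISO replicate 3 was the highest library for the genes Postn and Cthrc1 by a wide margin. Immediate early genes (Fos, Egr1, Jun and Atf3), which respond within minutes to stimulation or tissue handling, also summed highest there, at 212 CPM against 129 and 152 CPM in ISO replicates 1 and 2 and 107 to 145 CPM in saline. Their median log2 difference from the saline mean was 1.25 in ISO replicate 3, 0.04 in ISO replicate 1 and −0.45 in ISO replicate 2. With all libraries, none of the 4 was called by edgeR, DESeq2 or voom, and 1 had an unadjusted p under 0.05, beside 22.9% of all tested genes. Without ISO replicate 2, edgeR called 1 of the 4 higher, beside 3.50% of all tested genes. The part of these 4 genes in the results was not tested.

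Of the 8 genes, 4 were called higher in ISO (Postn, Cthrc1, Aebp1 and Prss23), none was called lower and 4 were not called (Fap, Ddah1, Cdh11 and Piezo2). Over all tested genes 1.47% were called higher. The 8 genes had a median log2 fold change of 1.01, against 0.02 over all tested genes, and 7 of the 8 had a positive value. All 3 ISO libraries lay above all 3 saline libraries for 5 genes, the 4 called genes and Fap, which was so for 14.1% of all tested genes. The genes were chosen with earlier results of these data known, so these counts describe them and are not independent evidence.

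**Figure D1:**
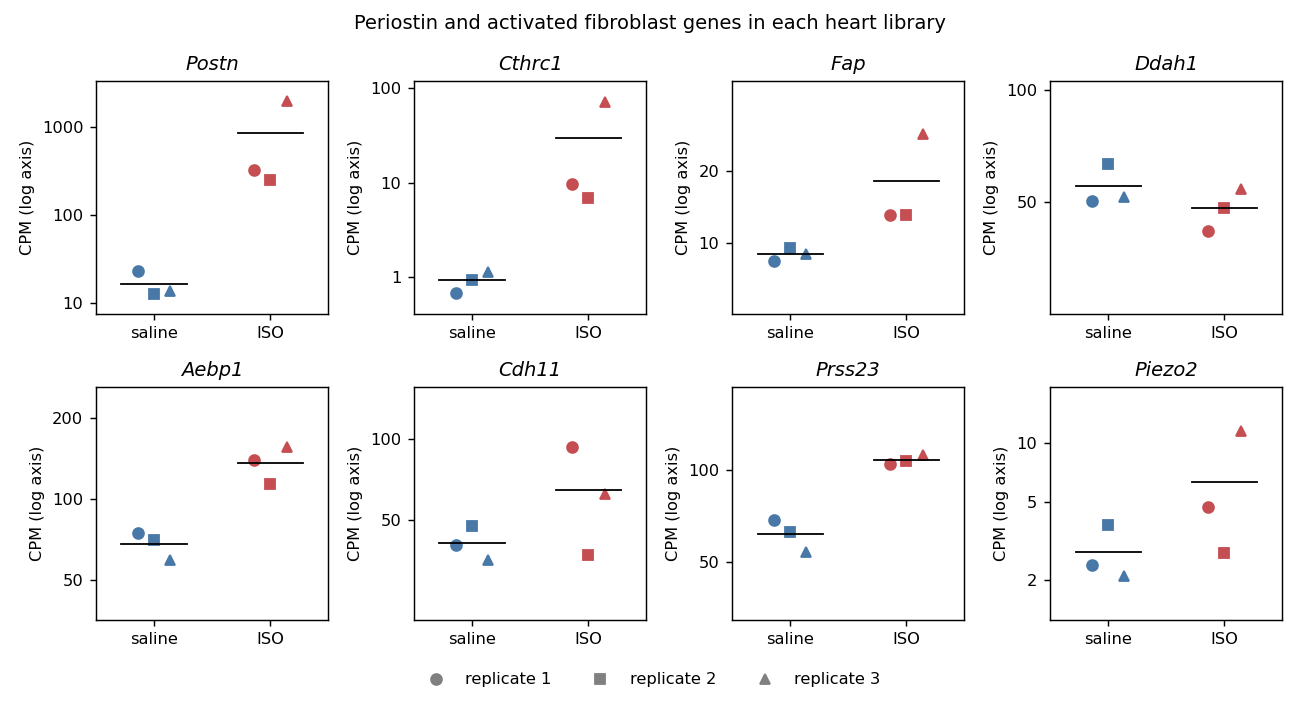
CPM of the 8 genes in each library on log axes, with saline in blue, ISO in red, 1 marker shape per replicate number and a line at the mean of each group (n = 3). Postn and Cthrc1 show ISO replicate 3 far above ISO replicates 1 and 2, which in turn lie above every saline library, whereas the groups overlap for Ddah1, Cdh11 and Piezo2.

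Postn (ENSRNOG00000012660) stood at 23.3, 12.6 and 13.7 CPM in the saline libraries, replicates 1 to 3 in that order, against 327, 252 and 2025 CPM in the ISO libraries. Behind these values were 342, 202 and 217 counts in saline and 5216, 4034 and 34700 counts in ISO. Every ISO library was above every saline library, and ISO replicate 3 was 8.05 times as high as ISO replicate 2, the lowest of its group. The log2 fold change was 5.71 (95% interval 3.70 to 7.73, SE 0.88, edgeR adjusted p = 0.02), the third largest rise among the tested genes. Without ISO replicate 3 it was 4.13 (SE 0.26, edgeR adjusted p = 0.00109), and over the 6 fits that left out 1 library it ran from 4.13 to 6.15. In bulk tissue a change in the number of cells of a type and a change in the RNA per cell cannot be told apart, and this holds for every value given here.

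Cthrc1 (ENSRNOG00000004578), whose secreted product is best known from remodelling arteries and healing scars, was barely detected in saline at 0.681, 0.938 and 1.14 CPM, from 10, 15 and 18 counts. In ISO it stood at 9.77, 6.92 and 71.8 CPM, from 156, 111 and 1231 counts. The groups did not overlap, and the order of the ISO libraries was that of Postn. The log2 fold change was 4.99 (95% interval 2.70 to 7.28, SE 1.00, edgeR adjusted p = 0.0407), and it was 3.17 without ISO replicate 3 (SE 0.33, edgeR adjusted p = 0.00924). The limma voom fit did not call it, at 4.21 (SE 1.78, voom adjusted p = 0.217).

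Aebp1 and Prss23 rose by smaller amounts, with less spread among the ISO libraries than Postn and Cthrc1. Aebp1 (ENSRNOG00000013720), whose product ACLP binds collagen fibrils, stood at 74.8, 70.5 and 59.2 CPM in saline and at 139, 113 and 156 CPM in ISO, a log2 fold change of 1.00 (95% interval 0.66 to 1.34, SE 0.15, edgeR adjusted p = 0.019). Prss23 (ENSRNOG00000017307), the serine protease gene, stood at 68.7, 62.5 and 53.9 CPM in saline and at 105, 107 and 111 CPM in ISO, a log2 fold change of 0.80 (95% interval 0.54 to 1.07, SE 0.12, edgeR adjusted p = 0.0175). Neither gene had an ISO library within the range of saline. Without ISO replicate 3 both were still called, at 0.89 for Aebp1 (edgeR adjusted p = 0.0278) and 0.78 for Prss23 (edgeR adjusted p = 0.0284).

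The 4 calls depended on which library was left out. None of the 8 genes was called by edgeR when saline replicate 1, saline replicate 2, saline replicate 3 or ISO replicate 1 was left out, although 5, 6, 5 and 6 of them had an unadjusted p under 0.05. In those fits 18.1%, 18.9%, 16.7% and 16.6% of all tested genes had an unadjusted p under 0.05, and 0.0996%, 0.0427%, 0.0497% and 0.0645% of all tested genes were called higher. Without ISO replicate 2, 5 were called higher, with Cdh11 added, beside 3.50% of all genes, and without ISO replicate 3 the same 4 were called, beside 1.23%. The log2 fold changes of Aebp1 and Prss23 moved between 0.89 and 1.11 and between 0.71 and 0.88 over these 6 fits. With all libraries, DESeq2 called 5 of the 8 higher (beside 3.49% of all genes) and voom called 3 (beside 1.12%). DESeq2 added Fap, and voom lost Cthrc1. The same 4 genes were called with DESeq2 size factors, without scaling, without a filter, with 1 CPM required in 3 libraries and without mitochondrial genes, beside 1.50%, 2.03%, 1.60%, 1.61% and 1.50% of all genes. Under the rule the series states (absolute log2 fold change over 0.5 and unadjusted p under 0.05), 6 were higher, with Fap and Piezo2 added, beside 8.67% of all genes. At an adjusted p under 0.01 edgeR called none of the 8, beside 0.0291% of all genes, and 6 had an unadjusted p under 0.05, as did 22.9% of all tested genes.

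**Figure D2:**
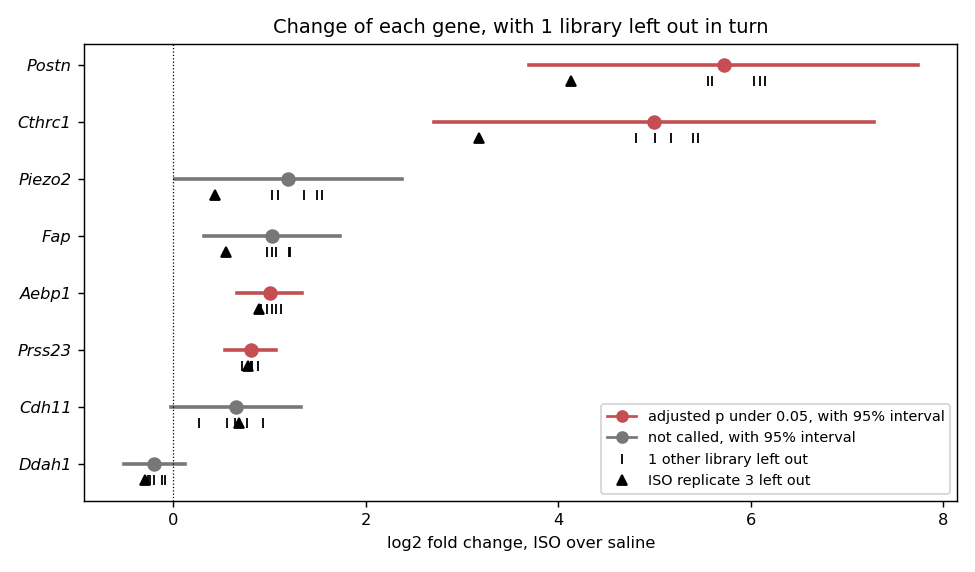
Log2 fold change of ISO over saline for each gene from the edgeR fit (points) with its 95% interval (bars), and below each the value with 1 library left out. Leaving out ISO replicate 3 (triangles) lowered Postn from 5.71 to 4.13 and Cthrc1 from 4.99 to 3.17, and moved Prss23 from 0.80 to 0.78.

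Fap (ENSRNOG00000005679), which encodes fibroblast activation protein, was at 8.45, 9.57 and 8.97 CPM in saline and at 13.1, 13.1 and 28.6 CPM in ISO. The groups did not overlap, yet the change of 1.02 was not called (95% interval 0.32 to 1.73, SE 0.31, edgeR adjusted p = 0.103). DESeq2 called it at 1.02 (DESeq2 adjusted p = 0.0196). Without ISO replicate 3 the edgeR value was 0.54 (SE 0.16, edgeR adjusted p = 0.128).

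Piezo2 (ENSRNOG00000038784), the touch-receptor channel gene, was low in every library, with 35, 61 and 33 counts in saline and 75, 44 and 197 counts in ISO. These counts gave 2.38, 3.81 and 2.08 CPM in saline and 4.70, 2.74 and 11.5 CPM in ISO. ISO replicate 2 lay within the saline range, and only ISO replicates 1 and 3 were above it. The log2 fold change was 1.19 (95% interval 0.01 to 2.37, SE 0.51, edgeR adjusted p = 0.214) and 0.43 without ISO replicate 3 (SE 0.39, edgeR adjusted p = 0.577).

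Cdh11 (ENSRNOG00000013481), the cadherin gene, had another order of ISO libraries. It stood at 40.3, 47.5 and 35.4 CPM in saline and at 94.0, 37.2 and 62.3 CPM in ISO, so that ISO replicate 1 was the highest and ISO replicate 2 lay within the saline range. The change of 0.65 was not called (95% interval −0.02 to 1.33, SE 0.29, edgeR adjusted p = 0.231), and it was 0.27 without ISO replicate 1 and 0.93 without ISO replicate 2 (SE 0.20, edgeR adjusted p = 0.0435). ISO replicate 1 also held the most RNA of endocardial markers, whose 4 members summed to 153 CPM there against 65.8 to 89.5 CPM in saline and 55.1 and 52.0 CPM in ISO replicates 2 and 3. The 5 valve-associated markers summed to 231 CPM in that library against 128 to 149 CPM in saline and 146 and 123 CPM in the other ISO libraries. The part of these markers and of the atrial RNA in the Cdh11 value was not tested.

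Ddah1 (ENSRNOG00000014613), the enzyme gene of dimethylarginine breakdown, was at 50.5, 63.4 and 51.7 CPM in saline and at 41.8, 48.1 and 54.4 CPM in ISO. The groups overlapped, and the log2 fold change was −0.20 (95% interval −0.51 to 0.12, SE 0.14, edgeR adjusted p = 0.427). The interval holds no rise of the size seen for Aebp1 or Prss23, whose own values were 1.00 and 0.80. All 6 fits that left out 1 library gave a negative value, from −0.29 to −0.09.

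The spread among the ISO libraries varied widely between the genes. The SD of log2 CPM over the 3 ISO libraries was 1.81 for Cthrc1, 1.64 for Postn and 1.02 for Piezo2, was 0.67 for Cdh11 and 0.65 for Fap, and was 0.23 for Aebp1, 0.19 for Ddah1 and 0.05 for Prss23. The median over all tested genes was 0.21, and 0.530% of tested genes had a larger SD than Cthrc1, 0.777% a larger one than Postn and 95.1% a larger one than Prss23. In saline the corresponding SDs were 0.33 for Cthrc1 and 0.48 for Postn. ISO replicate 3 was the highest ISO library for 7 of the 8 genes, all but Cdh11, and for 38.8% of tested genes. It exceeded the mean of ISO replicates 1 and 2 by more than 1 on the log2 scale for Postn, Cthrc1, Fap and Piezo2, with values of 2.82, 3.11, 1.12 and 1.64, and did so for 4.43% of tested genes. A difference of more than 2, as for Postn and Cthrc1, was seen for 0.559% of tested genes. For Aebp1, Ddah1, Cdh11 and Prss23 the same difference was 0.31, 0.28, 0.08 and 0.08.

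**Figure D3:**
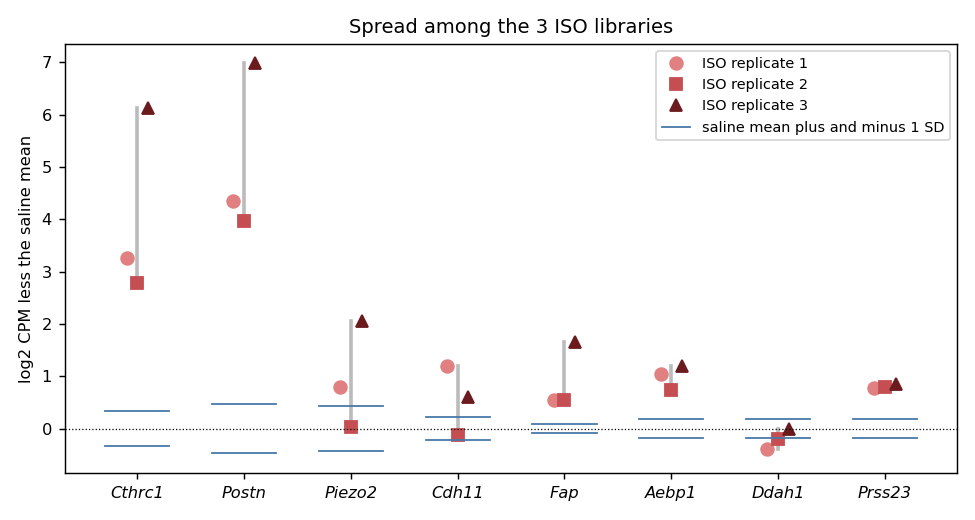
Log2 CPM of each ISO library less the saline mean, by gene in order of the range among ISO libraries, with blue lines at plus and minus 1 SD of the 3 saline libraries. ISO replicate 3 lies 6.98 above saline for Postn and 6.13 for Cthrc1, while the 3 ISO libraries of Prss23 lie between 0.77 and 0.86.

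Markers of resting fibroblasts, which were measured to describe the amount of fibroblast RNA, had 3 of 9 tested members called higher in ISO (beside 1.47% of all tested genes) and none lower. One was Scara5, a scavenger receptor gene, at 0.82 (SE 0.09, edgeR adjusted p = 0.0137). Another was Dpt, which encodes the matrix protein dermatopontin, at 0.87 (SE 0.13, edgeR adjusted p = 0.019). Col15a1, a basement membrane collagen gene named after its values were seen, went the other way, at 105, 107 and 120 CPM in saline and 69.7, 47.5 and 28.8 CPM in ISO, a log2 change of −1.19 that edgeR did not call (SE 0.27, edgeR adjusted p = 0.0568) and DESeq2 did (DESeq2 adjusted p = 0.000195). Without ISO replicate 3, 2 of the markers were called higher and 1 lower, beside 1.23% of 13955 tested genes higher and 124 lower. The tested members had a median of 0.81, and the 10 markers summed to 1493 to 1742 CPM in saline and to 2612, 2028 and 3133 CPM in ISO replicates 1 to 3. The order of the ISO libraries in this sum was that of Postn. The sum includes the matrix genes Lum and Mfap5, named after their values were seen, which were also highest in ISO replicate 3. Lum stood at 187, 228 and 152 CPM in saline and 476, 318 and 896 CPM in ISO (log2 change 1.58, edgeR adjusted p = 0.0541). Mfap5 stood at 19.0, 27.3 and 19.6 CPM in saline and 55.8, 29.9 and 91.7 CPM in ISO (log2 change 1.43, edgeR adjusted p = 0.0699).

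Relative to this fibroblast sum, Postn and Cthrc1 were the members with no overlap above saline. Postn had 15.6, 7.25 and 8.47 counts per 1000 counts of resting fibroblast markers in saline and 125, 124 and 646 in ISO, a difference of 4.45 on the log2 scale. Cthrc1 had 0.456, 0.538 and 0.703 in saline and 3.74, 3.41 and 22.9 in ISO, a difference of 3.53. By the exact two-sided permutation test each gave p = 0.1, the smallest that 3 against 3 libraries allow, so none of the 8 ratios computed could pass 0.05. All ISO libraries lay above all saline libraries in this ratio for 1.56% of tested genes.

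The called genes Aebp1 and Prss23 overlapped between groups in the ratio. Aebp1 was at 50.1, 40.4 and 36.6 per 1000 in saline and at 53.4, 55.9 and 49.8 in ISO, a log2 difference of 0.33 (exact permutation p = 0.2). Prss23 was at 46.0, 35.9 and 33.3 in saline and at 40.1, 52.6 and 35.5 in ISO, a log2 difference of 0.15 (exact permutation p = 0.6). Fap, Cdh11 and Piezo2 overlapped too, with log2 differences of 0.26, −0.10 and 0.32 and exact permutation p of 0.4, 0.8 and 0.6. With Pdgfra alone as the denominator Aebp1 no longer overlapped, which made 3 genes in place of 2, and 3 genes were also counted without saline replicate 1, ISO replicate 1 or ISO replicate 3. Ddah1 was the gene below saline in this ratio, at 33.8, 36.4 and 32.0 per 1000 in saline and 16.0, 23.7 and 17.4 in ISO, without overlap (log2 difference −0.86, exact permutation p = 0.1). In either direction, 53.6% of tested genes did not overlap, and the denominator itself was higher in all 3 ISO libraries.

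**Figure D4:**
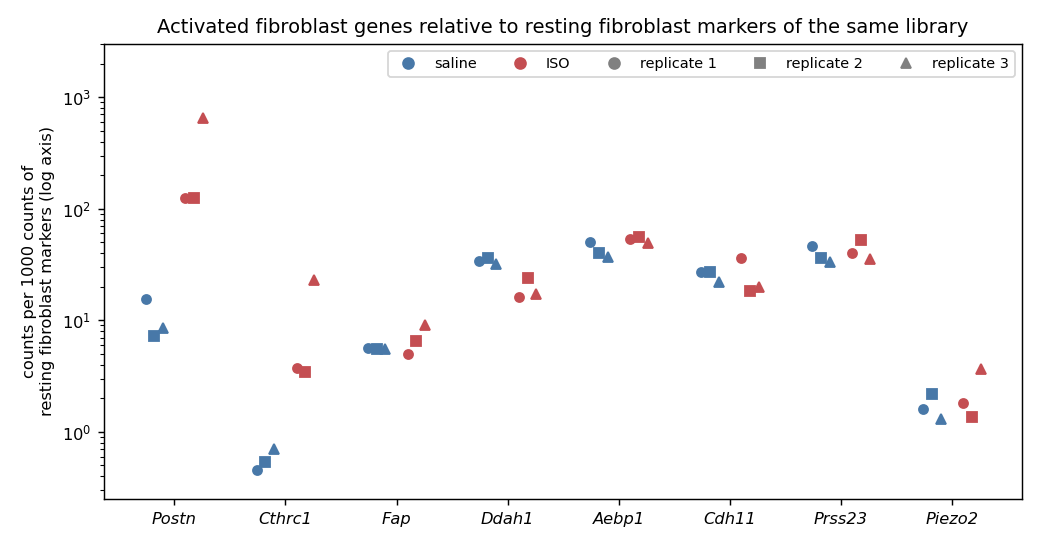
Counts of each gene per 1000 counts summed over 10 resting fibroblast markers of the same library, on a log axis, with saline in blue and ISO in red. Postn and Cthrc1 stand above saline in all 3 ISO libraries, Ddah1 stands below, and the other 5 genes overlap.

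Relatives from the same protein families were compared with the 8 genes. Of 13 tested relatives 1 was called higher (beside 1.47% of all tested genes) and none lower, and 10 had an unadjusted p under 0.05, beside 22.9% of all tested genes. The called one was Cpxm1, a carboxypeptidase-like relative of Aebp1, at 1.21 (SE 0.22, edgeR adjusted p = 0.0327), and without ISO replicate 3 none was called. Tgfbi, the closest relative of periostin, was at 69.1, 70.6 and 79.6 CPM in saline and at 123, 78.6 and 155 CPM in ISO, a change of 0.70 (SE 0.22, edgeR adjusted p = 0.113). Counts of Postn per count of Tgfbi were 0.337, 0.179 and 0.172 in saline and 2.65, 3.20 and 13.0 in ISO (exact permutation p = 0.1). Adjustment over the 10 such ratios computed raised this p to 0.2.

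Prss35, a serine protease relative of Prss23, had 12, 2 and 4 counts in saline and 34, 32 and 414 counts in ISO. ISO replicate 3 was far above the others, unlike for Prss23, and the log2 fold change of 4.57 was not called (SE 1.18, edgeR adjusted p = 0.0733). The ratio of Prss23 to Prss35 counts was 84.1, 499.5 and 213.5 in saline and 49.1, 53.4 and 4.61 in ISO (exact permutation p = 0.1, adjusted 0.2).

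The remaining relatives were not called. Dpp4, the protease most like Fap, was at −0.45 (SE 0.19, edgeR adjusted p = 0.204), and Fap counts per Dpp4 count were 0.351, 0.258 and 0.311 in saline and 0.499, 0.682 and 1.39 in ISO (exact permutation p = 0.1, adjusted 0.2). Dpp8 and Dpp9 were at −0.24 and −0.12, Dpp10 had no counts and Dpp6 did not pass the filter. Ddah2, the second dimethylarginine hydrolase, was at 0.33 (SE 0.12, edgeR adjusted p = 0.167), and the ratio of Ddah1 to Ddah2 overlapped between groups (exact permutation p = 0.2, adjusted 0.25). Cpxm2 was at 0.78 and Piezo1, the other Piezo channel gene, at 0.33 (SE 0.13, edgeR adjusted p = 0.184). Among cadherins, Cdh2 was at −0.31, Cdh5 at −0.10 (0.01 without scaling), Cdh6 at −0.43 and Cdh13 at 0.46, none of them called. Cdh11 per Cdh2 count was 0.124, 0.123 and 0.110 in saline and 0.335, 0.140 and 0.218 in ISO (exact permutation p = 0.1, adjusted 0.2).

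**Figure D5:**
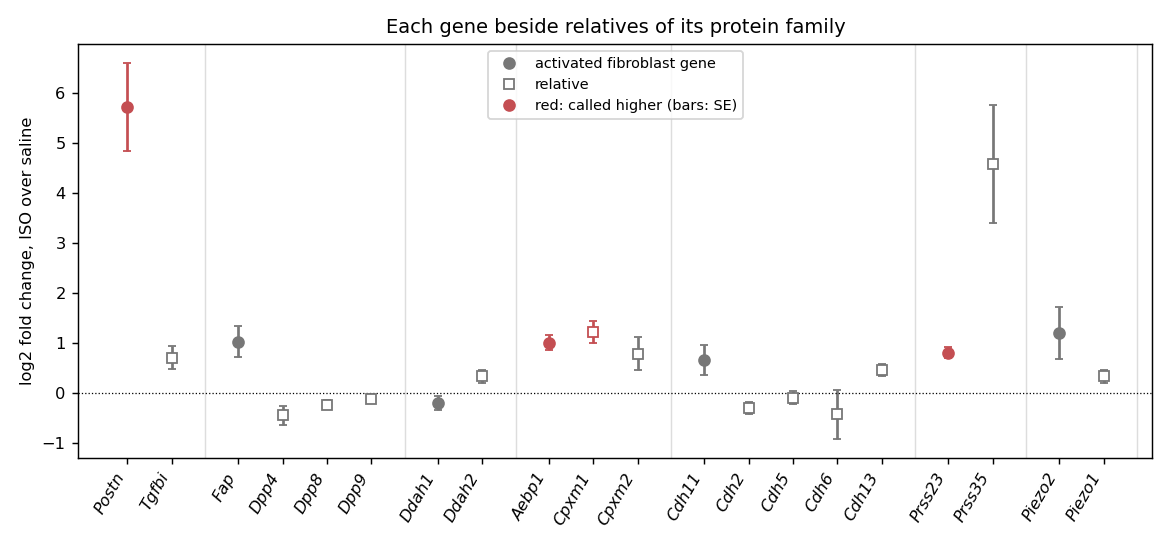
Log2 fold change of ISO over saline with its SE for 7 of the 8 genes (filled circles) and tested relatives of the same family (open squares), with called genes in red. Postn at 5.71 stands above Tgfbi at 0.70, whereas Prss23 at 0.80 stands below Prss35 at 4.57.

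Genes whose products work with periostin in the matrix had 2 of 14 tested members called higher (beside 1.47% of all tested genes) and none lower, with a median of 0.96. They were the fibrillar collagen gene Col3a1 at 1.88 (SE 0.29, edgeR adjusted p = 0.0204) and Bmp1 at 0.81 (SE 0.13, edgeR adjusted p = 0.0227), the procollagen protease that periostin is known to bind. The ISO libraries lay above saline for 9 of the 14, beside 14.1% of all tested genes. Without ISO replicate 3 there were 5 calls, all higher, beside 1.23% of all tested genes. Postn counts per Col1a1 count were 0.0360, 0.0189 and 0.0284 in saline and 0.198, 0.181 and 0.319 in ISO, and the SD among ISO libraries on the log2 scale was 0.44 for this ratio and 1.64 for Postn itself (exact permutation p = 0.1, adjusted 0.2). Cthrc1 per Postn count was 0.0292, 0.0743 and 0.0829 in saline and 0.0299, 0.0275 and 0.0355 in ISO.

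Of 22 tested further genes of activated fibroblasts and myofibroblasts, 5 were called higher (beside 1.47% of all tested genes) and 1 lower, with a median of 1.38. The higher ones included Thbs4, a thrombospondin gene, at 5.51 (SE 0.59, edgeR adjusted p = 0.0115), Itgbl1, an integrin beta-like gene, at 1.10, and Cilp, a matrix protein gene, at 1.66. The lower one was Scx, a transcription factor gene of tendon and fibroblasts, at −1.01 (SE 0.22, edgeR adjusted p = 0.0498). Without ISO replicate 3, 8 were called higher, beside 1.23% of all tested genes, and none lower. Scx was not called in any fit that left out 1 library. All 3 ISO libraries lay above saline for 15 of the 22, beside 14.1% of all tested genes. The contractile myofibroblast genes Acta2 at 0.34 (SE 0.21, edgeR adjusted p = 0.384) and Tagln at 0.58 (SE 0.23, edgeR adjusted p = 0.181), named after their values were seen, were not called. Cnn1, a further contractile gene of the list, was at 0.90 (SE 0.32, edgeR adjusted p = 0.147). It was not called either, although all ISO libraries lay above saline. Lrrc15, a marker of matrix-producing fibroblasts chosen in the same way, had 49 counts in ISO replicate 3, 1 in saline replicate 3 and none in the other 4 libraries, and did not pass the filter.

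In the TGF-beta pathway, a main activator of fibroblasts, 2 of 17 tested members were called higher (beside 1.47% of all tested genes) and none lower, with a median of 0.12. One was Tgfb3, which encodes a ligand, whose log2 change was 1.19 (SE 0.21, edgeR adjusted p = 0.0281). The other was Ltbp3, whose product holds the latent ligand in the matrix, with 0.91 (SE 0.16, edgeR adjusted p = 0.0289). The number called higher was 1 without ISO replicate 3, beside 1.23% of all tested genes.

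Pathways around single members held few calls. Over all tested genes 22.9% had an unadjusted p under 0.05, and edgeR called 1.47% higher in ISO and 206 of 13766 lower. DESeq2 called 3.49% of 20056 genes higher and 603 lower, and voom called 1.12% higher and 175 of 13766 lower. Wnt receptors and effectors, through which the products of Cthrc1 and Aebp1 are known to act, had none of 9 tested members called by edgeR, with 2 at an unadjusted p under 0.05, 2 called by DESeq2 and 0 by voom. Dvl3 was at −0.01 (0.09 without scaling) and Lrp6 at −0.00 (0.10 without scaling), and Fzd8, a receptor of the Aebp1 product, had no counts. The members that DESeq2 called were Ror2 and Wnt5a, named after their values were seen. Ror2 was at 1.44 with all ISO libraries above saline (edgeR adjusted p = 0.0775, DESeq2 adjusted p = 0.0269). Wnt5a was at −0.54 with all ISO libraries below saline (edgeR adjusted p = 0.0741, DESeq2 adjusted p = 0.0429). Without ISO replicate 2, edgeR called 1 of the 9 lower, beside 346 of 14074 tested genes. Around Ddah1, 1 of 7 tested genes of dimethylarginine and nitric oxide metabolism was called lower, the arginine transporter gene Slc7a1. It stood at 16.3, 15.9 and 13.4 CPM in saline and 9.08, 5.49 and 6.36 CPM in ISO, a log2 change of −1.12 (SE 0.21, edgeR adjusted p = 0.0344), which was not called without ISO replicate 3. The catenins, which link cadherins to actin, had none of 4 called by edgeR, with 1 at an unadjusted p under 0.05 and 0 by DESeq2 or voom. Ctnna1 was at −0.33 and Jup at −0.16. Piezo partners had none of 3 called by edgeR, with 1 at an unadjusted p under 0.05 and 0 by DESeq2 or voom. Mdfic was at −0.03 (0.09 without scaling).

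Over the 6 libraries, the genes whose pattern was nearest to that of Postn were Cthrc1, Spp1, Thbs4, Angptl4 and Prss35. Likeness was the root mean square difference of log2 CPM after centring each gene on its saline mean, among 11902 genes, and it was 0.87, 0.92, 0.92, 1.20 and 1.23 for these genes. Spp1, the gene of osteopontin, stood at 8.96, 5.80 and 227 CPM in ISO against a highest saline value of 0.938 CPM, with a log2 fold change of 6.73 that was not called (SE 1.65, edgeR adjusted p = 0.0665). Nearest to Cthrc1 were C1qtnf3 (0.56) and Gpnmb (0.63), and nearest to Fap were Gng8 (0.07) and Ctsz (0.09). The pattern of Piezo2 was nearest to Ccna2 (0.13) and Shcbp1 (0.15), and that of Cdh11 to Matn4 (0.11) and Cemip2 (0.14). Nearest to Aebp1 were Slc1a7 and Col18a1 (0.09 each), to Prss23 Slc8b1 (0.07) and Comtd1 (0.09), and to Ddah1 Trappc13 (0.04) and Zbtb26 (0.05). With 3 libraries a group, small distances are easily reached by genes of modest change.

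Markers of other cells were measured beside these genes. As a background for their counts, 1.47% of all tested genes were called higher and 22.9% had an unadjusted p under 0.05. DESeq2 called 3.49% of 20056 genes higher and 603 lower. Macrophage markers had 3 of 6 tested members called higher and none lower, including C1qa at 1.15 and Cd163 at 1.11, and they summed to 167 to 213 CPM in saline and 378, 320 and 552.5 CPM in ISO, in the same order of libraries as Postn. Of these 6, 4 were called higher without ISO replicate 3, beside 1.23% of all tested genes. Among valve-associated markers 1 of 5 was called higher, Prg4 at 1.49 (SE 0.28, edgeR adjusted p = 0.033). Smooth muscle and pericyte markers summed to 1074 to 1190 CPM in saline and 1081 to 1229 CPM in ISO, with Abcc9 at 0.00 (0.11 without scaling), and none of 8 was called by edgeR (1 at an unadjusted p under 0.05, 1 by DESeq2, 0 by voom). Epicardial and mesothelial markers, with Wt1 at −0.35, summed to 25.4 to 85.8 CPM in saline and 28.2 to 71.2 CPM in ISO. Endothelial markers summed to 984 to 1114 CPM in saline and to 1375, 1000.2 and 910.2 CPM in ISO replicates 1 to 3, and the 6 tested ones had a median of −0.00 (0.11 without scaling). Vwf, at 0.46, had 709 CPM in ISO replicate 1, 219 and 236 CPM in the other ISO libraries and 244 to 343 CPM in saline. Kdr, an endothelial receptor gene named after its values were seen, was at −0.56 with all ISO libraries below saline (SE 0.19, edgeR adjusted p = 0.13, DESeq2 adjusted p = 0.041). The cardiomyocyte gene Myh6 was at −0.57 (SE 0.23, edgeR adjusted p = 0.195, DESeq2 adjusted p = 0.0346). Of the 7 cardiomyocyte markers none was called by edgeR, with 2 at an unadjusted p under 0.05, 2 called by DESeq2 and 0 by voom. Other markers of that list were named after their values were seen. Tnnt2, Tnni3 and Actn2 were at 0.07, 0.01 and −0.02 (Actn2 0.08 without scaling). Ryr2, Pln and Myl2 were at −0.46, −0.45 and −0.58. Adipocyte markers were at or near 0 in every library, at most 3.70 CPM in all. Endocardial Cytl1 was at 0.27, mast cell Kit at −0.16 and atrial Myl7 at 4.44 (edgeR adjusted p = 0.191), the last with 70.7 CPM in ISO replicate 1 and at most 1.56 CPM elsewhere. The calls in the lists that held any also depended on which library was left out. With saline replicate 1, saline replicate 2, saline replicate 3 or ISO replicate 1 left out, edgeR called at most 2 members of any list, and without ISO replicate 2 it called 10 of the further activated fibroblast genes, 7 periostin partners, 6 resting fibroblast markers, 5 macrophage markers and 3 relatives, all higher. Over all tested genes, 3.50% were called higher without ISO replicate 2. In that fit edgeR also called 1 immediate early gene higher. It called 1 endothelial marker, 1 Wnt gene and 1 gene of dimethylarginine and nitric oxide metabolism lower, beside 346 of 14074 tested genes. The part of macrophage or other marker RNA in the values of Postn and the other 7 genes was not tested.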

How the data were processed

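RNA was measured in 6 rat hearts, 3 per group. Per the series' design text, the authors sequenced paired reads of 150 bp, used HISAT2 for alignment to a rat genome and featureCounts for counting. The design text speaks of FPKM, but the deposited values are read counts per gene, whole and not normalised, 1 column per library. Their tool versions are unknown here. Build mm10 is listed in the submitters' processing notes although the rows carry rat Ensembl identifiers, so no coordinates of the files' build were used. Whether strand was used in counting is not given, so antisense overlaps cannot be told apart.

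Of 33889 rows, 1006 placeholders (0.981% to 1.32% of counts) were left out. Genes were tested with edgeR 4.0.16 (quasi-likelihood F test, TMM scaling, default filter, Benjamini-Hochberg adjustment over 13766 genes) in R 4.3.3, and the SE is the log2 fold change over the square root of F. DESeq2 1.42.0, limma 3.58.1 (voom), scaling, filters, thresholds, a replicate block and each library left out were alternatives. Counts per list with each library left out were added after seeing the data. Log2 CPM used a prior count of 2, and ratios a pseudocount of 0.5. The counting floor of 3 counts was 0.175 to 0.204 CPM, counting error only. The scripts were tested on simulated data. All library pairs differed by more than sampling noise.

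The 8 genes and 22 further gene lists (with the 8, 184 of 187 entries found) were chosen with earlier results of these data known. Named genes were the 8, their relatives, up to 3 called members of each pathway list (or the 2 most abundant), up to 2 of each cell type list (or the most abundant), and the nearest patterns. The result of 1 list is not reported here. Promoter sequences are RefSeq's, build GRCr8.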

Additional observations from a re-analysis of the deposited data

How the results depend on the processing

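The count of called genes was 409 with all libraries, 28 with the replicate block (0.109% of genes higher), 1303 with DESeq2, 1812 under the series' rule (absolute log2 fold change over 0.5 and unadjusted p under 0.05) and 11 at an adjusted p under 0.01, and it ran from 12 (without saline replicate 3) to 838 (without ISO replicate 2) with 1 library left out. Of the 8 genes, 4 were called higher with all libraries, 0 with the replicate block, 0 at an adjusted p under 0.01, 6 under the series' rule, and 0 to 5 with 1 library left out. Fewer samples entered the fits that left 1 library out, and the cause of the other shifts was not tested. With the block Postn was at 5.04 (edgeR adjusted p = 0.0555), Cthrc1 at 4.44 (0.0529), Aebp1 at 0.99 (0.0695) and Prss23 at 0.81 (0.0684), and 5 of the 8 had an unadjusted p under 0.05, beside 19.0% of all tested genes. Same-numbered libraries correlated at 0.09, −0.10 and 0.02 in their deviations from the group means, and different-numbered ones at −0.15 to 0.12. With 3 libraries a group, these values cannot show whether the numbers pair the samples. None of the 8 log2 fold changes changed sign under any alternative run. The calls of the 8 genes under other scalings and filters stand above. The number of genes above saline in the ratio to fibroblast markers was 2 or 3 under every alternative run, and ISO replicate 3 was highest for 7 of 8 genes with another prior count and without scaling. The shares of all tested genes in those runs were not computed. Depth limits Piezo2 and Cthrc1 in saline, with 33 to 61 and 10 to 18 counts.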
